A study of Mus musculus with 6 samples.

Results

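The genes described here encode the protein subunits of the mitochondrial ribosome. They were taken from the kidney count table as the protein-coding genes whose GENCODE M21 symbol begins with Mrpl (large subunit) or Mrps (small subunit) followed by a digit, which gave 78 of 55450 genes, 49 Mrpl and 29 Mrps. A further 5 symbols of this form are processed pseudogenes and were left out. Kidney mRNA had been sequenced in 3 control mice, the day-0 group, and in 3 mice of the day-21 group, to follow kidney injury in a mouse model of high uric acid. All 6 were wild-type C57BL/6J males, bought at 7 weeks of age and kept for 1 week before the experiment. The day-21 mice received adenine (0.16 g/kg) with potassium oxonate (2.4 g/kg) by gavage every day. The control mice carry the label 20%PEG, a vehicle, and no day. Their place as the day-0 group rests on the series' design text, which calls day 0 the control, and whether they were gavaged with vehicle or untreated is not settled. By the study's methods each group was killed on its own day. The day-21 mice were then older at sampling, and age cannot be told apart from treatment. Adenine forms crystals in the tubules and potassium oxonate inhibits uricase, so the model combines crystal injury with raised uric acid, and in whole-kidney RNA fewer cells of a type cannot be told apart from less RNA per cell.

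The mitochondrial ribosome sits at the inner mitochondrial membrane and translates the few mRNAs of the mitochondrial genome, all of which encode subunits of the respiratory chain and ATP synthase. Its proteins are made in the cytosol from nuclear genes and imported, while its ribosomal RNAs are made inside the organelle. Part of its subunits descend from bacterial ribosomal proteins (bacterial-type) and the rest were classed as mitochondria-specific, for want of a bacterial counterpart. That class includes Mrps18a and Mrps18b, although both are paralogs of the bacterial S18 protein. The proximal tubule is among the cell types richest in mitochondria, since it reabsorbs solutes with energy from oxidative phosphorylation.

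By role, 51 of the 78 members belong to the large subunit and 26 to the small subunit. These counts follow structure rather than symbol, because the products of Mrps30 and Mrps18a sit in the large subunit despite their names. The remaining member, Mrps36, is named as a ribosomal protein but is known as a component of the 2-oxoglutarate dehydrogenase complex. All but 1 of the members (77) passed the filter on low counts. The exception, Mrpl53, had 0 counts in all 6 mice, which allows at most 0.309 CPM (counts scaled to the effective size of the library) in the shallowest library (3 counts). In GENCODE, 88.0% of its exon bases lie inside exons of Gm42688 on the same strand, so its level cannot be read from this table. Gm42688 itself held 6, 3 and 2 counts in the day-0 mice and 11, 11 and 21 counts in the day-21 mice.

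The members are scattered over the genome, and those with the largest changes have these places in GENCODE M21 (GRCm38), given for whole genes with exons and introns. On chromosome 11 lie Mrpl12 (ENSMUSG00000039640.7, chr11:120484613-120489065, plus strand), Mrpl38 (ENSMUSG00000020775.13, chr11:116131817-116138868, minus strand) and Mrps7 (ENSMUSG00000046756.10, chr11:115603925-115608036, plus strand). Elsewhere lie Mrps35 (ENSMUSG00000040112.9, chr6:147042764-147073991, plus strand), Mrps31 (ENSMUSG00000031533.4, chr8:22411361-22429665, plus strand), Mrpl28 (ENSMUSG00000024181.9, chr17:26123500-26126613, plus strand) and Mrpl33 (ENSMUSG00000106918.3, chr5:31596935-31664384, plus strand).

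On day 21 the mitochondrial ribosomal protein genes were lower as a group by a small amount when libraries were scaled by TMM. The median log2 fold change (day 21 over day 0) of the 77 members was -0.26, with the middle of the distribution between -0.45 and -0.17, against a median of 0.03 over all 16592 genes tested. Of the 77, 66 lay below 0 (85.7%, against 48.2% of all genes). Single members spanned -0.82 for Mrpl12 to 0.62 for Mrpl33. A gene counted as called when it changed by more than 1.5-fold with an adjusted p under 0.05 (edgeR quasi-likelihood test, Benjamini-Hochberg over all genes tested). By this rule 12 members were called lower, or 15.6%, and the background was 15.5% of all genes. None was called higher, where the background was 19.6%, and 2 members lay above 0 at an unadjusted p under 0.05. At an adjusted p under 0.05 and any fold, 29 members fell (37.7%, background 21.7%) and 0 rose (background 23.9%). DESeq2 called 14 members lower and 0 higher (all genes: 16.5% and 18.4%), and limma-voom called 11 and 0 (all genes: 15.3% and 19.9%). Without the day-0 mouse of replicate 2, 7 members were called lower (all genes: 14.4%), and without the day-21 mouse of replicate 3, 18 fell at any fold. The share of all genes that fell at any fold in the latter fit is not given here.

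**Figure D1:**
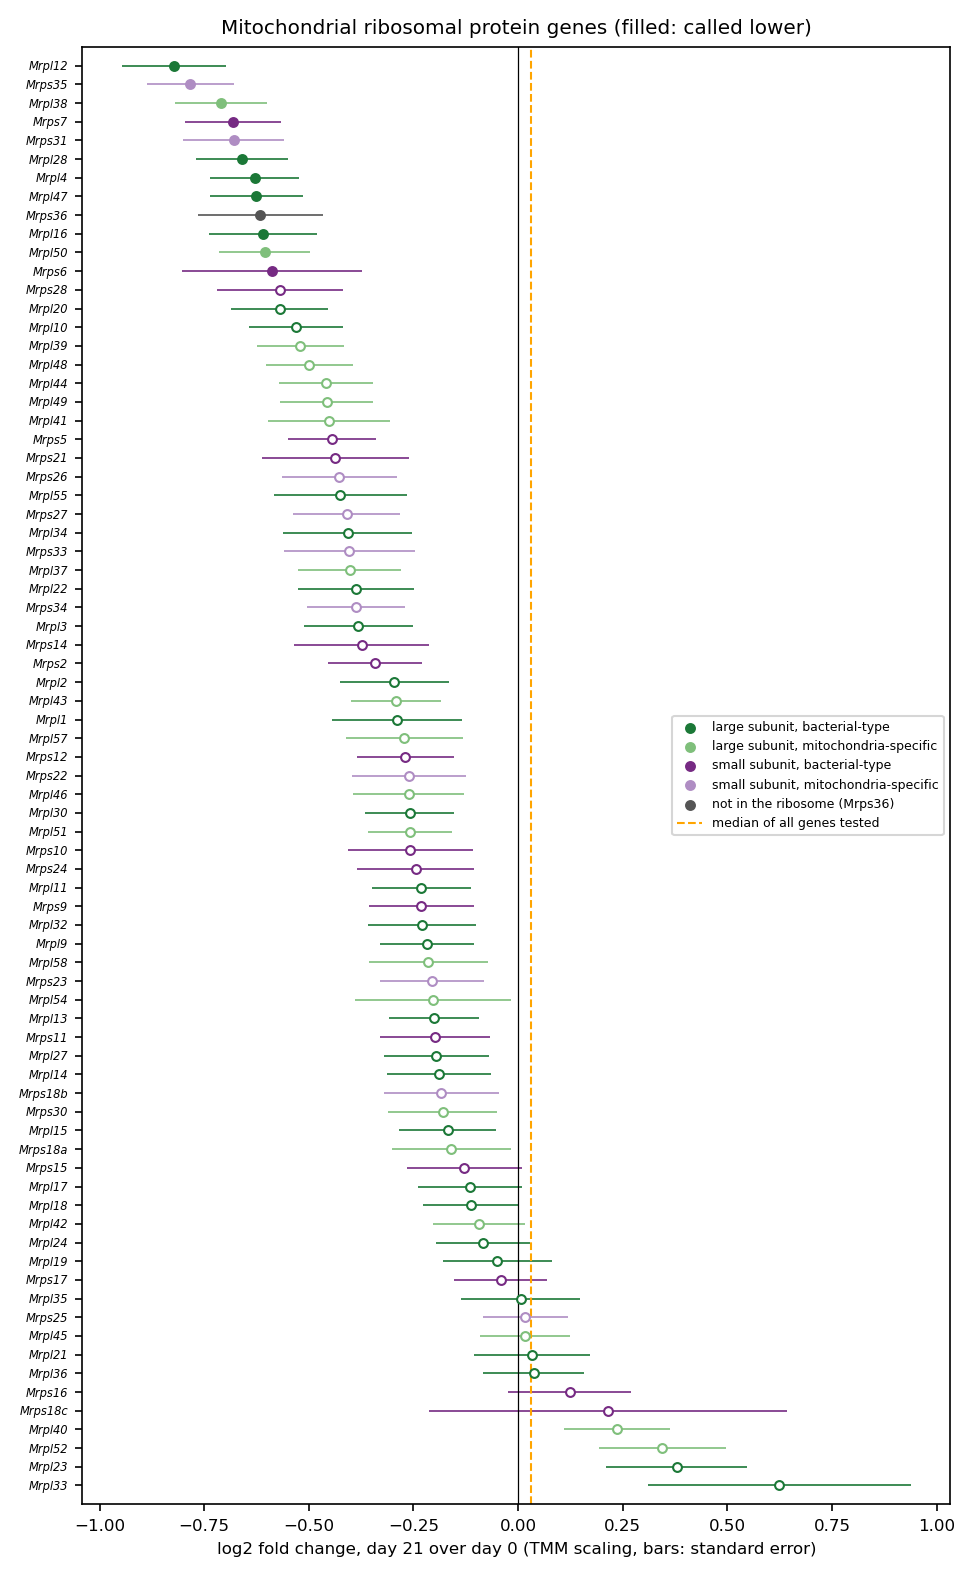
Log2 fold change of each of the 77 tested members, day 21 over day 0, with TMM scaling (x axis; points: estimate, bars: standard error, n = 3 mice a group), 1 gene a row, coloured by role, with filled points for the 12 called lower. Nearly all points lie left of the dashed line, the median of all genes tested at 0.03, and with scaling by library size alone only 28 of the 77 would lie below 0.

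The direction of these changes depends on the scaling. Counts summed over the members came to 3472, 3949 and 3379 TMM-scaled CPM in the day-0 mice and to 2797, 2897 and 2814 CPM in the day-21 mice, with no overlap. As an unscaled share of each library, the same counts came to 0.306%, 0.336% and 0.299% on day 0 and to 0.312%, 0.339% and 0.321% on day 21, and these groups overlap. The TMM factors ran from 0.852 to 0.886 on day 0 and from 1.12 to 1.17 on day 21. In the same libraries the 20 most abundant genes took 17.8% to 18.4% of all counts on day 0 and 11.7% to 13.1% on day 21. The mitochondrially encoded genes took 9.21% to 9.59% on day 0 and 3.74% to 4.35% on day 21. With library size alone as the scale, the median of the members was 0.13. Of the 77 members 0 were called lower (4 fell at any fold), where 8.06% of all genes were called lower. The 4 called higher (14 rose at any fold) were Mrpl23, Mrpl33, Mrpl40 and Mrpl52, where 36.1% of all genes were called higher. For this scaling the shares of all genes at any fold are not given here. Upper quartile scaling called 5 members lower, where 13.1% of all genes were called lower. Library size alone moved the median of all genes by 0.39. The gap between the median member and the median gene was -0.29, and since a change of scale shifts all genes by about the same amount, it is the same under all 4 scalings by construction. Other alternatives could move it: it was -0.24 without the day-0 mouse of replicate 2, -0.39 without the day-0 mouse of replicate 3 and -0.35 with no filter on low counts. Every fold change below is on the TMM scale unless another is named.

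**Figure D2:**
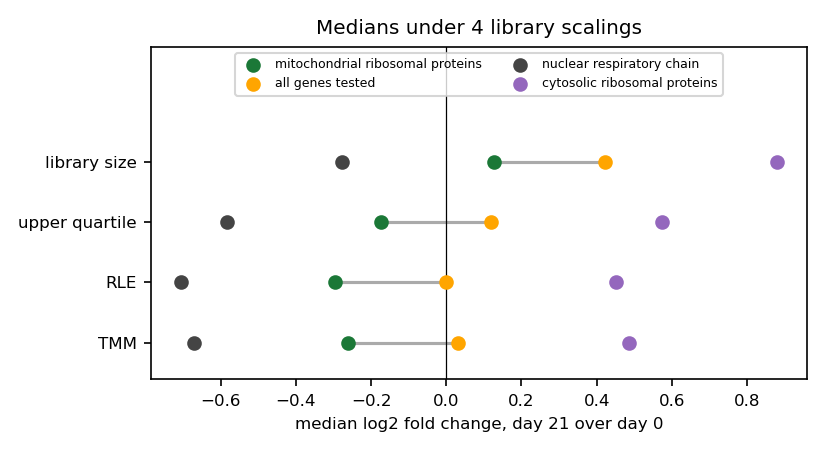
Median log2 fold change (x axis, day 21 over day 0) of the members, of all genes tested, and of the nuclear respiratory chain and cytosolic ribosomal protein lists under 4 library scalings (y axis). The grey line joins the members to all genes: both shift together, from -0.26 and 0.03 under TMM to 0.13 and 0.42 under library size, and the gap of -0.29 between them is kept by construction.

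Ratios of counts within a mouse do not depend on the scaling. The ratio of large-subunit to small-subunit counts was 2.42, 2.39 and 2.42 on day 0 and 2.43, 2.41 and 2.41 on day 21, so the balance of both subunits at the mRNA level was nearly constant over the 6 mice. Against the nuclear genes of the respiratory chain, the members' counts came to 14.5%, 14.8% and 15.8% on day 0 and to 22.0%, 22.1% and 21.2% on day 21. Against the mitochondrially encoded genes, whose mRNAs this ribosome translates, they came to 3.31%, 3.65% and 3.12% on day 0 and to 7.19%, 7.96% and 8.59% on day 21. Against the cytosolic ribosomal proteins they came to 18.9%, 21.6% and 24.0% on day 0 and to 13.0%, 11.7% and 11.6% on day 21. In each of the last 3 ratios the groups did not overlap. The mitochondrial ribosomal proteins lay between both other families, lower against the cytosolic ribosome and higher against the respiratory chain.

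**Figure D3:**
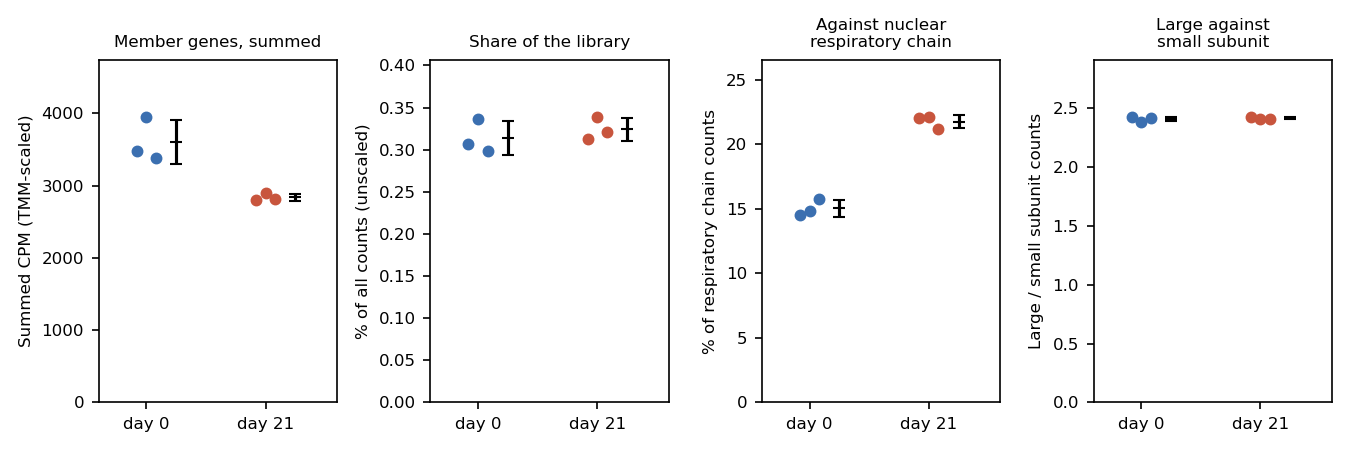
Counts summed over the members in each mouse (points; day 0 in blue, day 21 in red, 3 mice each; bars: mean and SD), as TMM-scaled CPM, as % of all counts, as % of nuclear respiratory chain counts, and as the ratio of large-subunit to small-subunit counts. The groups separate in the panels of summed CPM and of the respiratory chain, in opposite directions, overlap as a share of all counts, and sit between 2.39 and 2.43 for the ratio of subunits.

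The stalk of the large subunit, which recruits the translation factors to the ribosome, held the largest fall. Mrpl12, the stalk protein itself, was also the member with the highest level per length, at 104 CPM per kilobase of exon averaged over the 6 mice. It stood at 201, 235 and 175 CPM on day 0 and at 114, 113 and 118 CPM on day 21. All day-21 mice lay below all day-0 mice, and the log2 fold change was -0.82 (SE 0.12, edgeR adjusted p = 0.000408). Its share of the members' counts, which no scaling alters, was 5.78%, 5.94% and 5.18% on day 0 and 4.06%, 3.91% and 4.21% on day 21. With library size alone its log2 fold change was -0.43 (edgeR adjusted p = 0.00978). An antisense-strand lincRNA, Gm16755, covers 13.1% of the exon bases of Mrpl12 and had a log2 fold change of -0.84. It held 1191, 1695 and 1115 counts on day 0 and 972, 1157 and 1160 counts on day 21. Without a known strand setting, reads of this pair cannot be told apart.

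The anchor of the stalk, Mrpl10, fell too, from 74.8, 89.0 and 76.6 CPM to 59.7, 53.7 and 53.0 CPM (log2 fold change -0.53, SE 0.11, edgeR adjusted p = 0.00331), short of the fold limit. Its neighbour at the factor-binding site, Mrpl11, stood at 33.4, 39.6 and 33.6 CPM and then at 29.8, 30.2 and 30.7 CPM. These groups did not overlap, but the difference did not pass the test (log2 fold change -0.23, edgeR adjusted p = 0.137). Of the 4 stalk genes tested (with Mrpl54, at -0.20), 1 was called lower and 2 fell at any fold.

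The promoters of Mrpl12 and of Mrpl33, the members at either end of the range, are shown with those of Mrps7 and Mrps31, both called lower. They come from RefSeq (GRCm38.p6, plus strand), 5′ to 3′, from 150 bases before to 30 bases after the start listed there. Capitals mark a match to a motif of NRF1 or of the ETS family, whose member GABP, with NRF1, is known to drive nuclear genes for mitochondrial proteins.
Mrpl12, chr11:120484487-120484666: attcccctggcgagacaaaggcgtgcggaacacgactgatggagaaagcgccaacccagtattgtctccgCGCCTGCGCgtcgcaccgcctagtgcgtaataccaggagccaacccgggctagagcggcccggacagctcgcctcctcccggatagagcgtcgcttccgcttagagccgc
Mrps7, chr11:115603990-115604169: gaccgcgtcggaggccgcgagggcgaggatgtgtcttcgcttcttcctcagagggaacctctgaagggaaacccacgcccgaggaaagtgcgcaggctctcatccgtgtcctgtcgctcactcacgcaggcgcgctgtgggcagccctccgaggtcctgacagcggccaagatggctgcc
Mrps31, chr8:22411190-22411369: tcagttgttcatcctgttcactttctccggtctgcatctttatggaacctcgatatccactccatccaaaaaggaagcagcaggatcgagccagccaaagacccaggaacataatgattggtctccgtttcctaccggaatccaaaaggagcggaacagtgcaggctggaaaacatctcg
Mrpl33, chr5:31613801-31613980: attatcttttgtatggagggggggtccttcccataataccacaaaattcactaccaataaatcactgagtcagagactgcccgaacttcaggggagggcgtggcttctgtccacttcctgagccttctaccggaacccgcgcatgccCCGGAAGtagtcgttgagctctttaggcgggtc
The NRF1 match of Mrpl12 begins 80 bases before the start and the ETS match of Mrpl33 begins 3 bases before it. No match to these letters was found in the windows of Mrps7 and Mrps31. For Mrpl12, Mrps7 and Mrpl33 the GENCODE gene begins upstream of the RefSeq start, so other starts of these genes lie outside or elsewhere in the windows.

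A promoter (250 bases before to 50 after the start) was listed for 69 of the 78 members. Both strands were searched for 3 motifs, none of which contains another. The ETS motif CCGGAAG was in 25 of the 69 (36.2%), against 17.1% of 10892 promoters of protein-coding genes tested and 9.12% of all 27025 promoters. The NRF1 motif GCGCANGCG was in 16 (23.2%), against 12.8% and 6.47%. The YY1 motif AAGATGGCG was in 8 (11.6%), against 3.002% and 1.49%. At least 1 of the 3 was in 41 member promoters (59.4%), against 29.1% and 15.3%. Of the 9 called members with a promoter, 0 held the ETS motif, 1 the NRF1 motif and 0 the YY1 motif. Among the 24 that fell at any fold, the ETS motif was in 5, against 20 of the other 45. The NRF1 motif was in 6 of the 24 (25.0%) and 10 of the 45 (22.2%), and the YY1 motif in 2 and 6. Differences between these shares were not tested. These are matches of letters and were not tested for binding. Among the factors themselves, Nrf1 (log2 fold change -0.18), Gabpa (-0.17) and Yy1 (-0.12) were not called.

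Among the other large-subunit genes, 6 more were called lower. Mrpl38, a mitochondria-specific protein of the central protuberance, stood at 79.5, 96.3 and 85.8 CPM on day 0 and at 53.2, 55.4 and 51.5 CPM on day 21 (log2 fold change -0.71, SE 0.11, edgeR adjusted p = 0.000465). Mrpl28, of bacterial type, fell from 58.7, 65.3 and 56.6 CPM to 35.8, 38.1 and 40.4 CPM (log2 fold change -0.66, SE 0.11, edgeR adjusted p = 0.000814). In both genes the lowest day-0 mouse lay well above the highest day-21 mouse.

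The other 4 were chosen for naming after their values were seen. Mrpl4, a bacterial-type core protein, stood at 76.0, 89.9 and 85.6 CPM and then at 55.2, 52.2 and 55.2 CPM (log2 fold change -0.63). Mrpl16, the counterpart of the bacterial protein that lines the tRNA-binding sites, stood at 46.3, 57.3 and 47.7 CPM and then at 36.8, 31.4 and 31.0 CPM (-0.61). Mrpl50, which is mitochondria-specific, stood at 95.2, 79.1 and 84.1 CPM and then at 57.8, 58.0 and 54.0 CPM (-0.61). Mrpl47, which lies by the exit of the nascent peptide, stood at 88.9, 105 and 87.6 CPM and then at 59.2, 63.8 and 59.4 CPM (-0.63). None of these 4 overlapped between the groups. Over the 16 alternatives Mrpl4 and Mrpl47 were called in 13, Mrpl50 in 11 and Mrpl16 in 10. The exons of Mrpl47 overlap those of Ndufb5 on the opposite strand by 13.9%, and Ndufb5, a subunit of complex I, was itself called lower at -0.84.

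**Figure D4:**
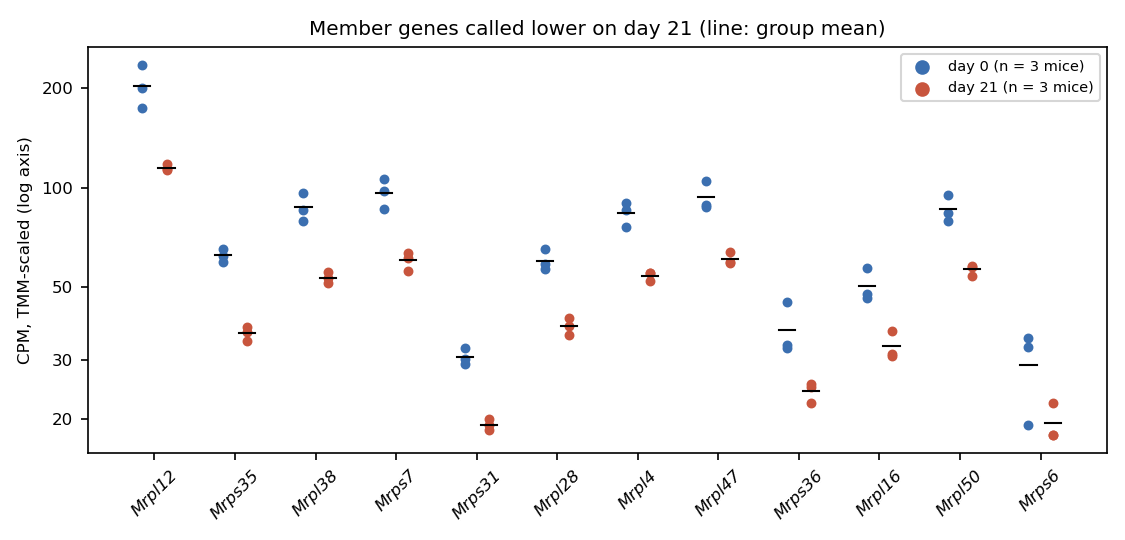
TMM-scaled CPM (log y axis) of the 12 members called lower, by mouse (day 0 in blue, day 21 in red, 3 mice a group; line: group mean). The groups are apart in 11 genes and overlap in Mrps6. With library size alone as the scale, where 8.06% of all genes were called lower, none of the 12 would be called, although all keep a negative sign.

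The genes around the peptide exit did not move together. Beside Mrpl47, Mrpl22 fell at any fold (-0.39), while Mrpl24 (-0.08), Mrpl45 (0.02) and Mrpl23 (0.38) did not pass the test. Mrpl45, which ties the ribosome to the inner membrane, stood at 35.9, 38.7 and 38.2 CPM on day 0 and at 36.6, 39.9 and 37.6 CPM on day 21. Its 95% interval of the log2 fold change includes 0, and its estimate lay close to the median gene. Mrpl23, a bacterial-type protein at the exit, stood at 26.7, 30.7 and 19.3 CPM and then at 30.2, 35.4 and 34.3 CPM, with overlapping groups (edgeR adjusted p = 0.0904).

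At the upper end of the range was Mrpl33, a small bacterial-type protein. It stood at 3.11, 2.47 and 1.55 CPM on day 0 and at 3.46, 3.70 and 3.86 CPM on day 21 (log2 fold change 0.62, SE 0.31, edgeR adjusted p = 0.130). The groups did not overlap, and the low counts leave a wide error. Only Mrpl40 and Mrpl52 (both mitochondria-specific, named after their values were seen) also had every day-21 mouse above every day-0 mouse, so 3 members did (background 30.7%), while 44 members had every day-21 mouse below (background 26.4%) and 30 overlapped. Mrpl52 stood at 29.7, 32.2 and 22.7 CPM and then at 32.5, 39.8 and 35.2 CPM (log2 fold change 0.34). Mrpl40 stood at 28.2, 27.6 and 23.7 CPM and then at 32.4, 32.7 and 28.6 CPM (log2 fold change 0.24). Under library size alone, where 36.1% of all genes were called higher, these 2 genes were too, at 0.74 for Mrpl52 and 0.63 for Mrpl40.

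Large-subunit proteins with a known enzyme-like or unusual role lay mostly in the middle of the range. Mrpl44, which carries an RNase III-like fold, fell from 43.2, 48.1 and 47.4 CPM to 31.6, 33.5 and 35.8 CPM (log2 fold change -0.46, SE 0.11, edgeR adjusted p = 0.00712). Mrpl58, a peptidyl-tRNA hydrolase that frees stalled ribosomes, stood at 41.8, 56.0 and 39.8 CPM and then at 39.5, 41.2 and 38.1 CPM, with overlapping groups (-0.21). Mrps30 stood at 28.7, 35.3 and 28.8 CPM and then at 28.9, 27.2 and 25.8 CPM, also with overlap (-0.18).

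In the small subunit, 4 genes were called lower. Mrps35, which is mitochondria-specific, stood at 59.5, 65.4 and 62.4 CPM on day 0 and at 34.4, 36.6 and 37.9 CPM on day 21 (log2 fold change -0.78, SE 0.11, edgeR adjusted p = 0.000192). Mrps7, whose bacterial counterpart starts the assembly of the head of the subunit, stood at 86.1, 106 and 97.9 CPM and then at 63.6, 61.4 and 56.0 CPM (-0.68, SE 0.11, edgeR adjusted p = 0.000831). Mrps31, which is mitochondria-specific, stood at 29.2, 30.2 and 32.7 CPM and then at 19.1, 18.5 and 19.9 CPM (-0.68, SE 0.12, edgeR adjusted p = 0.00112). In these 3 genes the groups were far apart compared with the spread within them.

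The fourth call is less firm. Mrps6, a bacterial-type protein named after its values were seen, stood at 35.2, 33.0 and 19.2 CPM on day 0 and at 17.9, 22.4 and 17.9 CPM on day 21 (log2 fold change -0.59, SE 0.21, edgeR adjusted p = 0.0457). Its groups overlap, since the day-0 mouse of replicate 3 lay within the day-21 range, and it was called in 6 of the 16 alternatives. In GENCODE 19.9% of its exon bases lie in Gm49711 on the same strand, a gene with 0 counts in all mice.

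Mrps12, the counterpart of the bacterial protein that controls decoding accuracy, stood at 37.3, 42.4 and 36.3 CPM on day 0 and at 31.1, 31.9 and 33.3 CPM on day 21. The groups did not overlap, and the test was not passed (log2 fold change -0.27, edgeR adjusted p = 0.0805). Mrps2, of bacterial type, fell from 46.0, 43.4 and 44.6 CPM to 38.5, 34.2 and 33.1 CPM (-0.34, SE 0.11, edgeR adjusted p = 0.0299).

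The 3 paralogs of the bacterial S18 protein occupy different places in the ribosome, Mrps18a in the large and the other two in the small subunit. None passed the test. Mrps18a stood at 39.0, 55.9 and 42.2 CPM on day 0 and at 40.7, 41.9 and 40.2 CPM on day 21 (log2 fold change -0.16). Mrps18b stood at 33.3, 34.2 and 26.2 CPM and then at 26.9, 25.9 and 29.8 CPM (-0.18), and 30.5% of its exon bases lie under the antisense gene Gm16279. Mrps18c was near the lower limit, at 1.00, 3.54 and 2.06 CPM and then at 2.90, 2.80 and 2.08 CPM (0.21, SE 0.43). In all 3 paralogs the groups overlapped.

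Mrps36, the member that is not a ribosome subunit, was called lower as well. It stood at 33.4, 45.2 and 32.7 CPM on day 0 and at 25.4, 22.4 and 25.0 CPM on day 21 (log2 fold change -0.62, SE 0.15, edgeR adjusted p = 0.00712). Of its longest transcript, 36.2% of the 50-base words also occur in other genes, first of all the pseudogene Mrps36-ps1, which held 3 counts in 1 mouse and 0 in the others. It was called in 12 of the 16 alternatives, and without the day-0 mouse of replicate 2 its log2 fold change was -0.45. Without Mrps36, 11 of 76 ribosome subunits tested were called lower.

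By structure, each share of calls lay near the background of 15.5%. In the large subunit 7 of 50 tested genes were called lower and 18 fell at any fold (median -0.26). In the small subunit 4 of 26 were called lower and 10 fell at any fold (median -0.31). Among bacterial-type proteins 7 of 46 were called lower and 14 fell at any fold (median -0.25). Among mitochondria-specific proteins 4 of 30 were called lower and 14 fell at any fold (median -0.28). Split by both, the median was -0.23 for bacterial-type genes of the large subunit (9 of 30 fell at any fold) and -0.27 for its mitochondria-specific genes (9 of 20). In the small subunit it was -0.26 for bacterial-type genes (5 of 16) and -0.40 for mitochondria-specific genes (5 of 10). The differences between these medians were not tested.

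Levels differed widely between members when set per kilobase of exon. After Mrpl12, Mrpl34 (69.2 CPM per kilobase) and Mrps21 (55.9) were highest, and Mrps18c (2.23) and Mrpl33 (0.41) were the lowest above 0. The divisor was the union of all annotated exons of a gene, so this ranking also depends on the annotation. That length was 607 bases for Mrpl34 and 739 for Mrps21, but 7326 for Mrpl33. Mrpl34, a very short bacterial-type protein, stood at 44.0, 59.2 and 40.4 CPM and then at 32.9, 39.3 and 36.3 CPM (log2 fold change -0.41, edgeR adjusted p = 0.0529). Mrps21 stood at 40.5, 60.3 and 41.5 CPM and then at 29.3, 38.8 and 37.2 CPM (-0.44, edgeR adjusted p = 0.0649). In both, all day-21 mice lay below all day-0 mice. Across the 77 members the Spearman correlation of the log2 fold change was -0.329 with mean CPM, 0.152 with exon length and -0.118 with GC content of the longest transcript. These are descriptions across genes measured in the same 6 libraries.

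Many members share their start with a neighbour. For 25 of the 77 tested members (32.5%), another protein-coding gene began on the opposite strand within 500 bases, against 12.6% of 13896 protein-coding genes tested. Of the 25 neighbours, 1 was called lower and 4 were called higher, with a median of -0.07. Over all protein-coding genes tested, 14.8% were called lower and 21.1% higher. Counts this small cannot tell the neighbours from that background. The 4 higher ones were Ska3 (2.78), which acts at the kinetochore and lies beside Mrpl57 (-0.27), Ncapd2 (1.93), a condensin subunit beside Mrpl51 (-0.26), Mitd1 (1.31), of cytokinesis, beside Mrpl30 (-0.26), and Mtbp (0.65), beside Mrpl13 (-0.20). The lower one was Klc4 (-0.66), beside Mrpl2 (-0.30). These 5 were named because the counts are small, after their values were seen. Mrps11 and Mrpl46, members themselves, are each other's neighbour and had values of -0.20 and -0.26. Their gene bodies overlap, with starts 412 bases apart, and 12.2% of the exon bases of Mrpl46 lie under Mrps11. Without a known strand setting, reads from the shared bases cannot be told apart.

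For 17 members, over 10% of the exon bases lie in another gene. For most of them (13) that gene is on the opposite strand. The strongest cases beside Mrpl53 were Mrps25 (69.8% under Nr2c2, log2 fold change 0.02) and Mrps34 (63.4% under Mapk8ip3, -0.39). Mrps34 also shares 37.0% of its exon bases with Nme3 on the same strand, a gene with 0 counts in all mice. Next came Mrpl19 (36.0% under Gcfc2, -0.05), Mrpl43 (33.4% under Twnk, -0.29) and Mrpl24 (26.3% under Rrnad1, -0.08). The others were Mrpl10 (14.1%), Mrpl14 (11.2%), Mrpl18 (10.1%), Mrpl46 (12.2%), Mrps24 (15.4%), Mrps27 (24.2%) and Mrps18c (23.2%), with Mrpl12, Mrpl47, Mrps6 and Mrps18b given above. Values of all these genes may include reads of their neighbours or lack reads from shared bases, which was not tested. Of the 61 tested members without such an overlap, 9 were called lower and the median was -0.27.

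Subunits of the same ribosome that carry other names had values within the members' range. Of 5 tested, 0 were called and 3 fell at any fold. Ptcd3 of the small subunit stood at 38.5, 35.2 and 37.5 CPM on day 0 and at 27.0, 26.8 and 25.5 CPM on day 21 (log2 fold change -0.49, edgeR adjusted p = 0.00510). Dap3, a GTP-binding protein of the small subunit, was at -0.42 and Aurkaip1 at -0.41, both past the test. Gadd45gip1 of the large subunit (-0.19) and Chchd1 (-0.03) did not pass it. The background for these and the following counts is that given for all genes.

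The factors that work with the ribosome included larger falls. Of 16 translation factors, 6 were called lower and 0 higher, with a median of -0.44. They ran from Gfm1 at -1.02, the elongation factor that moves the tRNAs, which stood at 154, 167 and 174 CPM on day 0 and at 82.5, 79.6 and 81.8 CPM on day 21, to Slirp at 0.11. Of 20 genes for mitochondrial aminoacyl-tRNA synthetases and the related amidotransferase, 6 were called lower (12 fell at any fold) and 0 higher, with a median of -0.47. They ran from Gatb, an amidotransferase subunit, at -1.36 to Pars2 at 0.21.

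Genes for the assembly of the ribosome and modification of its RNA had a median of -0.26, as the members did, with 3 of 25 called lower (8 fell at any fold) and 0 higher. Without the day-0 mouse of replicate 2, 1 of them was called. The lowest was Mtg2, a GTPase of large-subunit assembly, at -0.68, and the highest Mterf4 at 0.23. Of 10 genes for mitochondrial DNA maintenance and transcription, 2 were called lower (5 fell at any fold), from Top1mt at -0.86 to Polg2 at 0.20, with a median of -0.28. Without the day-21 mouse of replicate 1, 1 of them was called. Of 18 genes for protein import and chaperones, 5 were called lower (11 fell at any fold), from the chaperonin Hspd1 at -1.25 to Tomm22 at 0.06, with a median of -0.46. Without the day-0 mouse of replicate 1, or that of replicate 3, 8 of them were called. Of 9 regulators of mitochondrial biogenesis, Ppargc1b (-1.24) and Esrra (-0.73) were called lower and Myc (1.46) was called higher.

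The nuclear genes of the respiratory chain had a median of -0.67, with 55 of 89 called lower (75 fell at any fold) and 1 higher. This list was taken by symbol and holds ATP synthase genes and, of the assembly factors, those of complex I (Ndufaf). The genes of the list differed widely. They ran from Sdha at -1.25 to Ndufa4l2 at 1.17. The mitochondrially encoded genes had a median of -1.64, with 12 of 12 called lower, from mt-Nd4l at -3.97 to mt-Nd6 at -1.37. The cytosolic ribosomal proteins had a median of 0.49, with 1 of 81 called lower (Rpl3l at -2.02) and 20 higher (Rps27a highest at 1.22). At any fold 58 of the 81 rose (background 23.9%) and 1 fell. The count of 20 past the fold limit rests on single mice: it was 4 without the day-0 mouse of replicate 3, 35 without that of replicate 2 and 33 without the day-21 mouse of replicate 1. The 1 call of the respiratory chain that was higher was lost without the day-21 mouse of replicate 3. Under library size alone the medians were -0.28 for the nuclear respiratory chain and 0.88 for the cytosolic ribosomal proteins.

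**Figure D5:**
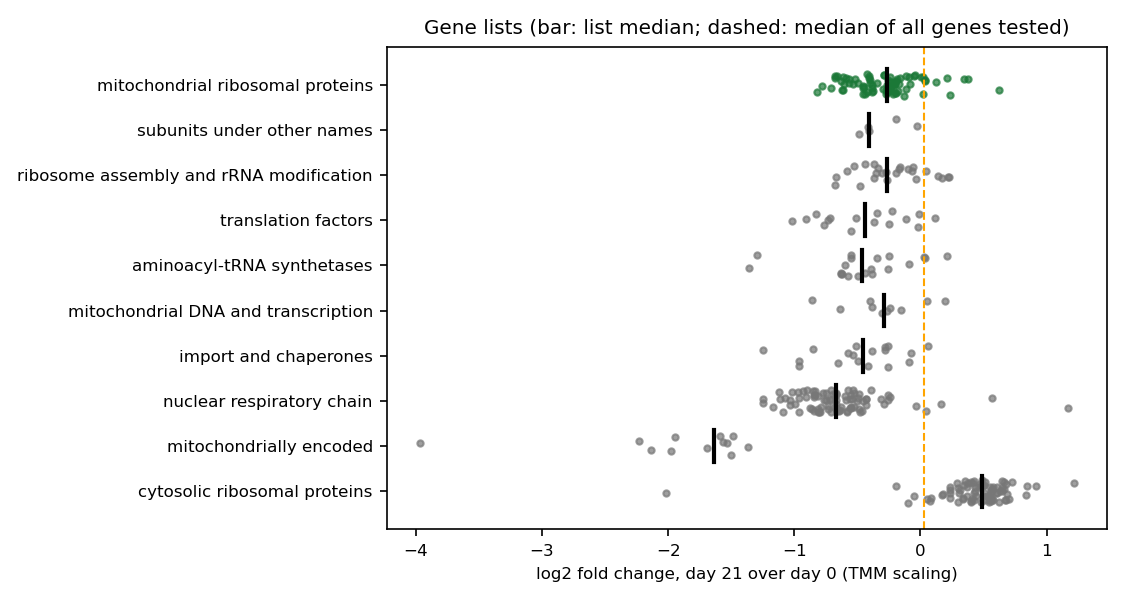
Log2 fold change of every tested gene (x axis, day 21 over day 0, TMM scaling) in 10 gene lists (rows; members in green; bar: list median; dashed line: median of all genes tested). The medians run from -1.64 for the mitochondrially encoded genes through -0.67 for the respiratory chain and -0.26 for the members to 0.49 for the cytosolic ribosomal proteins; under library size alone the members' median is 0.13.

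Markers of cell types moved with these differences in the same mice. The 10 proximal tubule markers, which include Lrp2 and Slc34a1, were all called lower (median -1.80), and their summed level was 17282 to 18993 CPM on day 0 and 4136 to 5283 CPM on day 21. Markers of the thick ascending limb and distal tubule fell in 5 of 6 genes, of the collecting duct in 3 of 6, of podocytes in 3 of 5 and of endothelium in 1 of 5 by the same calls. All 8 macrophage markers were called higher, from a sum of 150 to 190 CPM on day 0 to 807 to 1108 CPM on day 21, as were all 7 fibroblast and myofibroblast markers (241 to 336 CPM, then 1162 to 2153 CPM) and all 5 proliferation markers (52.7 to 59.0 CPM, then 171 to 217 CPM). Of 6 lymphocyte markers, the 4 tested were called higher (3.31 to 7.995 CPM in sum, then 19.1 to 20.2 CPM). The part of these shifts in the members' values was not tested.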

How the data were processed

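Kidney total RNA was extracted with TRIzol, libraries were made with a TruSeq kit, and paired reads of 2 × 150 bp were sequenced by the authors. They deposited raw counts per gene, 1 column a mouse, with no normalization. The submitters' processing notes name TopHat and mm10. The counting program and its strand setting are not given in the sources used here. Every gene identifier was found in GENCODE M21, which gave symbols, types, exons and positions. Library totals ran from 10963849 to 14333311 counts, and the floor of 3 counts corresponds to 0.179 to 0.309 CPM (counting error only).

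The tools were edgeR 4.0.16, DESeq2 1.42.0 and limma 3.58.1 in R 4.3.3, with Python 3.11.15 for sequences and figures. After filterByExpr (minimum count 10, minimum total 15) and TMM scaling, the quasi-likelihood test compared 3 mice with 3 on 16592 genes, with Benjamini-Hochberg adjustment. The thresholds of the study, 1.5-fold and an adjusted p of 0.05, defined the calls. CPM values are TMM-scaled, and a standard error is the log2 fold change divided by the root of its F statistic. On counts simulated for this comparison (16592 genes, 200 of them changed 3-fold), edgeR called 186 of the 200 and 5 unchanged genes. Every member changed by less than 3-fold, so this does not give the share found at the sizes reported here. Since 0.1 is the smallest p of an exact permutation test with 3 mice a group, none is printed. No pair of mice was a duplicate (chi-square per gene 7.19 to 24.0). The labels do not say whether mice shared a litter or cage. Each p-value sets the group difference against the spread between these mice, with variances moderated across genes.

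The members, lists and tests were chosen with earlier results of these data known. Named by rule were the 6 called members with the largest fall, the 2 with the highest estimates (none was called higher), 13 members of set roles, the 3 highest and 3 lowest per kilobase, those not tested, and those with over 10% of exon bases in another gene. For each other list except the cell type markers its lowest and highest gene was named. Outside this rule, after their values were seen, the text names the members marked so, Mrpl22 and Mrpl54 with their structural groups, and Mrpl2, Mrpl13, Mrpl30, Mrpl51, Mrpl57 and Mrps11 with their neighbours. Kinases of ribosomal protein S6 (Rps6k) were left out of the cytosolic ribosomal proteins. Protein sequences were not used here.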

Additional observations from a re-analysis of the deposited data

How the results depend on the processing

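The counts and median were recomputed under 16 alternatives and 1 stricter threshold. Upper quartile scaling called 5 members lower (all genes: 13.1%), with 19 lower and 2 higher at any fold and a median of -0.17. Library size alone called 0 lower and 4 higher (all genes: 8.06% and 36.1%), with 4 lower and 14 higher at any fold and a median of 0.13. With no filter on low counts, 1 member was higher at any fold. With limits of 2-fold and an adjusted p of 0.01, 0 members were lower. The fold limit alone fixed this, since the largest fall (Mrpl12, fold 0.57) is under 2-fold. The share over all genes at these limits is not given here. Leaving out 1 mouse at a time gave 7 to 14 members lower (7 without day-0 replicate 2) and 0 to 0 higher. In these fits 13.6% to 15.7% of all genes were called lower and 16.9% to 18.9% higher. At any fold, 18 to 37 members were lower (18 without day-21 replicate 3) and 0 to 1 higher (1 without day-0 replicate 2). The any-fold counts of all these alternatives have no share over all genes beside them, so they cannot be set against a background. Medians ran from -0.36 (without day-0 replicate 3) to -0.21. RLE scaling, DESeq2, voom, removal of the mitochondrially encoded genes or of the 20 highest genes, and a mean of at least 50 counts kept the counts within 1.5 times and the sign of the median.

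The day-0 and day-21 mice are different animals, so replicate numbers do not pair them. Same-numbered deviations correlated at -0.02, 0.17 and 0.09, which cannot show whether mice shared a batch or cage. The replicate block called 11 members lower and 0 higher (all genes: 15.2% and 19.5%), with 30 lower at any fold and a median of -0.26.

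Under library size alone 38 of the 77 members changed sign, among those named by rule Mrps18a 0.23, Mrps18b 0.21, Mrps30 0.21, Mrpl58 0.18, Mrpl11 0.16, Mrps12 0.12, Mrps2 0.047, Mrpl24 0.31, Mrps24 0.15, Mrpl14 0.20, Mrpl43 0.10, Mrpl19 0.34, Mrpl46 0.13, Mrps34 0.0053 and Mrpl18 0.28. Upper quartile scaling changed the sign of 3 members, with Mrpl24 at 0.00315 and Mrpl19 at 0.039. RLE scaling and DESeq2 each changed the sign of 3, and both gave -0.016 for Mrpl45 and for Mrps25. Leaving out 1 mouse gave -0.29 to 0.012 for Mrps18a, -0.15 to 0.76 for Mrps18c, -0.036 to 0.045 for Mrpl45, -0.032 to 0.053 for Mrps25, -0.15 to 0.011 for Mrpl24 and -0.13 to 0.00766 for Mrpl19. Apart from the effect of the scale itself, the cause was not tested. Depth limits Mrps18c and Mrpl33, the least abundant members tested.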
